A study of Mus musculus with 20 samples.

Results

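The microglia genes are a set of 33 genes named by symbol, and all 33 were found among the 23412 genes of the deposited expression tables. They cover surface receptors of resting microglia, receptors for growth factors, the complement and phagocytosis machinery, Fc receptor and Trem2 signalling, genes shared with other leukocytes, and the Cd200 ligand with its receptor Cd200r1. The set is fixed by gene symbol, without a threshold on these values, and was put together with earlier results of these data known. They were measured by RNA-seq of polyadenylated RNA in 20 libraries of whole hippocampus or amygdala from mice at postnatal day 21. Per tissue, 4 libraries were labelled control, 3 were labelled NCoR1-KO and 3 were labelled SMRT-KO. Both knockouts combined the pan-neuronal Snap25-IRES2-cre driver, which places Cre recombinase under the Snap25 locus, with floxed alleles of the nuclear receptor corepressors NCoR1 or SMRT. The labels name the controls without giving their Cre or floxed alleles, and they do not state whether the libraries of a group came from separate animals, so the p-values measure the spread between these libraries. Because the driver is neuronal, the deletion was not directed at the cells that express most of these genes.

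Microglia are the resident macrophages of the brain parenchyma. They depend on signalling through Csf1r, whose ligands are Csf1 and Il34, and hold their tissue identity through TGF-beta, which acts on a receptor that contains Tgfbr1. They sense neurons through ligand and receptor pairs such as Cx3cl1 with Cx3cr1 and Cd200 with Cd200r1, follow extracellular nucleotides with the purinergic receptor P2ry12, and take part in synapse removal through C1q and the complement receptor subunit Itgam. Transcription of many of their genes uses PU.1, an ETS-family factor encoded by Spi1.

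Expression is given in TPM, the share of transcripts in a library after scaling by transcript length, which keeps no record of sequencing depth. The defining microglia markers P2ry12, Tmem119, Cx3cr1, Fcrls and Siglech were present in every library, from 12.1 TPM for Siglech in a hippocampal NCoR1-KO library to 94.7 TPM for P2ry12 in an amygdala control. Of the markers of macrophages at the brain borders, Mrc1 and Pf4 were low in the amygdala. Mrc1 lay between 4.55 and 7.26 TPM, Pf4 between 2.62 and 5.36 TPM, and the monocyte gene Ccr2 at no more than 0.65 TPM. The whole list of 24 genes of border macrophages and leukocytes summed to 39.7 to 89.7 TPM there and 14.6 to 66.3 TPM in the hippocampus. In bulk tissue, fewer microglia and less RNA of a gene per microglial cell cannot be told apart.

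Ncor1, the gene targeted in NCoR1-KO, followed the labels. It measured 32.1, 34.6 and 39.0 TPM in the amygdala NCoR1-KO libraries against 71.3 to 127 TPM in controls. In the hippocampus it measured 41.9 to 61.1 TPM against 81.6 to 137 TPM. Control 1 was the lowest control in both tissues. It stood at 71.3 TPM in the amygdala, where the other controls held 117 to 127 TPM. In the hippocampus control 1 stood at 81.6 TPM, where the others held 119 to 137 TPM. Snap25, which carries the driver, was below every control in all knockout libraries of both genotypes, at 1053 to 1699 TPM against 1825 to 2329 TPM. The ribosomal RNA precursor gene Rn45s took 0.953% to 3.28% of a library. In the hippocampus it was at 18677 to 32837 TPM in controls, above every knockout library. NCoR1-KO libraries there held 10388 to 16599 TPM and SMRT-KO libraries 9527 to 15528 TPM. Its part in the hippocampal differences from control was not tested.

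Among the controls, the members spanned more than 2 orders of magnitude. In the amygdala, Cd200 was the highest at 182 ± 16.4 TPM (SD, n = 4), followed by the lysosomal protease gene Ctss at 136 ± 27.1 TPM. A group of microglial genes lay close together below it: C1qc at 97.3 ± 12.6, Csf1r at 88.1 ± 9.22, C1qa at 85.2 ± 8.4, P2ry12 at 82.2 ± 12.4 and C1qb at 81.5 ± 6.91 TPM. These 5 levels lay within about 1 SD of their neighbours in that order. Ptprc, which encodes the leukocyte phosphatase CD45, and Irf8, a transcription factor of the myeloid lineage, were the lowest of the members that passed the filter, at 4.72 ± 0.926 and 4.7 ± 0.751 TPM. Cd200r1 stood at 0.425 ± 0.203 TPM and did not pass the filter of at least 1 TPM in at least 3 libraries in either tissue, so 32 members were tested. The control mean was higher in the amygdala than in the hippocampus for 32 of the 33 members, Tgfbr1 being the exception, and for 10 members every amygdala control lay above every hippocampal control. The tissues were tabulated separately, and their levels were not tested against each other.

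The clearest pattern in the data lay in the amygdala between the knockouts. In NCoR1-KO libraries, 14 of the 32 tested members fell relative to SMRT-KO, among them the purinergic receptors P2ry12 and P2ry13, the fractalkine receptor Cx3cr1, Tmem119, Tgfbr1, C1qa, C1qb and Itgam, and Cd200 rose. Across all 14606 genes tested, 6.46% were lower and 5.03% were higher at the same threshold, a Benjamini-Hochberg adjusted p under 0.05 in limma on log2(TPM + 1). The fitted log2 difference was below 0 for 30 of the 32 members, against 50.1% of all genes. The members' median was -0.34, with a range from -0.68 for P2ry13 to 0.63 for Cd200, beside a median of -0.0002 over all genes. For 27 members every NCoR1-KO library lay below every SMRT-KO library, a pattern found in 19.6% of all genes.

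Surface receptors and genes of the homeostatic signature held 7 of the 14 lower calls, and all 10 members of this group had NCoR1-KO libraries below all SMRT-KO libraries. P2ry12, the ADP receptor that steers microglial processes, measured 65.3, 60.1 and 55.7 TPM in NCoR1-KO, 83.8, 92.3 and 91.1 in SMRT-KO, and 87.5, 65.4, 81.3 and 94.7 TPM in controls. The NCoR1-KO libraries were the lowest of the 10, with 1 control just above them. P2ry12 fell to 67.8% of the SMRT-KO mean (log2 difference -0.56 ± 0.12 SE, limma adjusted p = 0.0185). Its neighbour P2ry13, a related ADP receptor, measured 13.6, 12.9 and 11.8 TPM in NCoR1-KO, 19.1, 22.1 and 21.8 in SMRT-KO, and 21.3, 13.8, 17.7 and 21.0 TPM in controls. That was the lowest ratio of any member, 60.8% of SMRT-KO (log2 difference -0.68 ± 0.14 SE, limma adjusted p = 0.0185). Both genes lie inside Med12l on the opposite strand in the GENCODE M21 annotation. The library kit marks strand, but the sources used here do not give whether counting used it, so reads of Med12l could enter their values. Gpr34 and Csf1r overlap Cask and Hmgxb3 on the opposite strand, and Itgam and Irf8 overlap Gm49368 and Gm20388 on the same strand. Reads of those genes could likewise enter the values of these members.

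Cx3cr1, the receptor for neuronal fractalkine, was tight within the knockout groups and wider among controls: 46.6, 43.9 and 45.1 TPM in NCoR1-KO, 58.4, 57.9 and 59.0 in SMRT-KO, and 63.3, 49.1, 57.2 and 58.9 TPM in controls. No NCoR1-KO library reached any other library. Cx3cr1 fell by 0.36 on the log2 scale (SE 0.08, limma adjusted p = 0.0208). Its annotated span overlaps Gorasp1, Csrnp1 and Xirp1 on the same strand, so its value is uncertain to the extent that reads were shared. Gpr34, a lysophosphatidylserine receptor, measured 21.8, 22.8 and 21.4 TPM in NCoR1-KO, 32.2, 28.5 and 30.7 in SMRT-KO, and 29.9, 21.0, 24.5 and 30.3 TPM in controls, so that NCoR1-KO stood at 72.2% of SMRT-KO (log2 difference -0.45 ± 0.12 SE, limma adjusted p = 0.0387). Amygdala control 2 lay below every NCoR1-KO library for Gpr34. Tmem119, a membrane protein used to mark microglia, stood at 22.8, 23.3 and 24.2 TPM in NCoR1-KO, 28.0, 29.5 and 32.5 in SMRT-KO, and 26.2, 24.2, 26.5 and 29.9 TPM in controls (NCoR1-KO against SMRT-KO log2 difference -0.34 ± 0.08 SE, limma adjusted p = 0.0276).

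Fcrls, an Fc receptor-like gene of mouse microglia, measured 27.9, 27.4 and 32.5 TPM in NCoR1-KO, 39.7, 43.0 and 36.6 in SMRT-KO, and 39.4, 34.6, 30.4 and 37.6 TPM in controls (log2 difference -0.43 ± 0.10 SE, limma adjusted p = 0.0271). Olfml3, a secreted protein of the resting signature, measured 24.5, 21.1 and 23.8 TPM in NCoR1-KO, 27.2, 33.6 and 33.3 in SMRT-KO, and 24.3, 21.6, 25.8 and 30.5 TPM in controls (log2 difference -0.42 ± 0.12 SE, limma adjusted p = 0.0485). For Olfml3 the controls overlapped both knockouts. The remaining members of this group did not pass the threshold: Selplg had an adjusted p of 0.0515 in limma, Slco2b1 of 0.174 and Siglech of 0.294, with log2 differences from -0.32 to -0.25.

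Of the growth factor and TGF-beta group, Tgfbr1, the type I TGF-beta receptor, had the smallest adjusted p of the lower members. It measured 17.3, 18.3 and 19.7 TPM in NCoR1-KO, 24.8, 25.9 and 26.6 in SMRT-KO, and 23.1, 21.5, 23.0 and 23.6 TPM in controls. The 3 genotypes did not overlap, with NCoR1-KO lowest and SMRT-KO highest. NCoR1-KO stood at 71.5% of SMRT-KO (log2 difference -0.46 ± 0.07 SE, limma adjusted p = 0.00515). Csf1r, the receptor that microglia need to survive, measured 69.7, 69.3 and 72.7 TPM in NCoR1-KO, 86.1, 80.4 and 91.5 in SMRT-KO, and 90.7, 74.5, 92.2 and 94.9 TPM in controls. Its NCoR1-KO libraries were below all others, but its limma adjusted p against SMRT-KO was 0.0571. Itgb5, an integrin subunit, had a log2 difference of -0.20 with a limma adjusted p of 0.0916.

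C1qa, C1qb and C1qc encode the 3 chains of C1q, the initiator of the classical complement pathway, and lie side by side on the minus strand of chromosome 4, between C1qb at 136880129 to 136886187 and C1qa at 136895917 to 136898803 (GRCm38). C1qb measured 74.9, 62.1 and 66.9 TPM in NCoR1-KO, 86.0, 92.6 and 90.6 in SMRT-KO, and 78.0, 74.5, 90.4 and 83.0 TPM in controls (log2 difference -0.40 ± 0.08 SE, limma adjusted p = 0.018). C1qa measured 73.1, 65.5 and 73.0 TPM in NCoR1-KO, 79.8, 93.3 and 94.8 in SMRT-KO, and 90.6, 72.7, 89.4 and 88.1 TPM in controls (log2 difference -0.33 ± 0.09 SE, limma adjusted p = 0.046). C1qc measured 89.4, 81.8 and 77.4 TPM in NCoR1-KO, 94.3, 95.2 and 104 in SMRT-KO, and 98.7, 83.3, 114 and 93.7 TPM in controls. Its log2 difference of -0.24 did not pass the threshold (limma adjusted p = 0.132). C1qa and C1qb kept near-equal levels in each of the 20 libraries: the ratio of C1qa to C1qb ran from 0.928 to 1.16 in the amygdala and from 0.946 to 1.14 in the hippocampus. C1qc was above C1qb in every library, with a ratio of 1.03 to 1.32 in the amygdala and 1.03 to 1.38 in the hippocampus.

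Of the other genes of this group, Itgam and Laptm5 fell. Itgam, the CD11b subunit of complement receptor 3, measured 12.7, 11.3 and 13.5 TPM in NCoR1-KO, 17.2, 17.2 and 19.4 in SMRT-KO, and 17.6, 13.2, 17.4 and 19.6 TPM in controls (log2 difference -0.49 ± 0.12 SE, limma adjusted p = 0.0328). Laptm5, a lysosomal membrane protein of blood-lineage cells, measured 36.4, 31.7 and 36.1 TPM in NCoR1-KO, 45.7, 43.1 and 48.0 in SMRT-KO, and 44.2, 36.7, 45.4 and 44.4 TPM in controls (log2 difference -0.38 ± 0.09 SE, limma adjusted p = 0.0246). Ctss, a protease of the microglial lysosome, had a larger difference of -0.48 with an adjusted p of 0.0579 in limma. Cd68, a lysosomal glycoprotein, differed by -0.03 between the knockouts (limma adjusted p = 0.888).

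No gene of the Fc receptor and Trem2 group passed the threshold. All 5 had differences below 0, from -0.34 for the signalling adaptor gene Fcer1g to -0.03 for Fcgr3, with a median of -0.28 and a smallest limma adjusted p of 0.0691 for the lipid phosphatase gene Inpp5d. Trem2, a lipid-sensing receptor, differed by -0.30 and its adaptor Tyrobp by -0.18.

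Of the transcription and pan-leukocyte group, Cd53, a tetraspanin of leukocytes, measured 8.36, 8.36 and 8.12 TPM in NCoR1-KO, 10.04, 11.5 and 11.1 in SMRT-KO, and 11.2, 10.3, 11.8 and 10.96 TPM in controls. Its NCoR1-KO libraries formed a narrow cluster below all 7 others (log2 difference -0.35 ± 0.08 SE, limma adjusted p = 0.0235). Aif1, which encodes the actin-binding protein Iba1, measured 10.6, 9.45 and 11.8 TPM in NCoR1-KO, 14.6, 14.2 and 15.5 in SMRT-KO, and 15.7, 11.9, 13.2 and 12.9 TPM in controls (log2 difference -0.45 ± 0.11 SE, limma adjusted p = 0.0275). Ptprc had the opposite order to the rest, at 4.28, 6.29 and 4.73 TPM in NCoR1-KO, 3.73, 2.83 and 3.95 in SMRT-KO, and 4.25, 4.05, 6.08 and 4.49 TPM in controls. Its NCoR1-KO libraries were all above the SMRT-KO libraries, but the difference of 0.43 did not pass the threshold (limma adjusted p = 0.109). Irf8, the membrane pore gene Mpeg1 and Ly86, which encodes a partner of a Toll-like receptor homologue, had differences of -0.36, -0.29 and -0.43 and were not called (limma adjusted p = 0.0995, 0.183 and 0.0638).

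**Figure D1:**
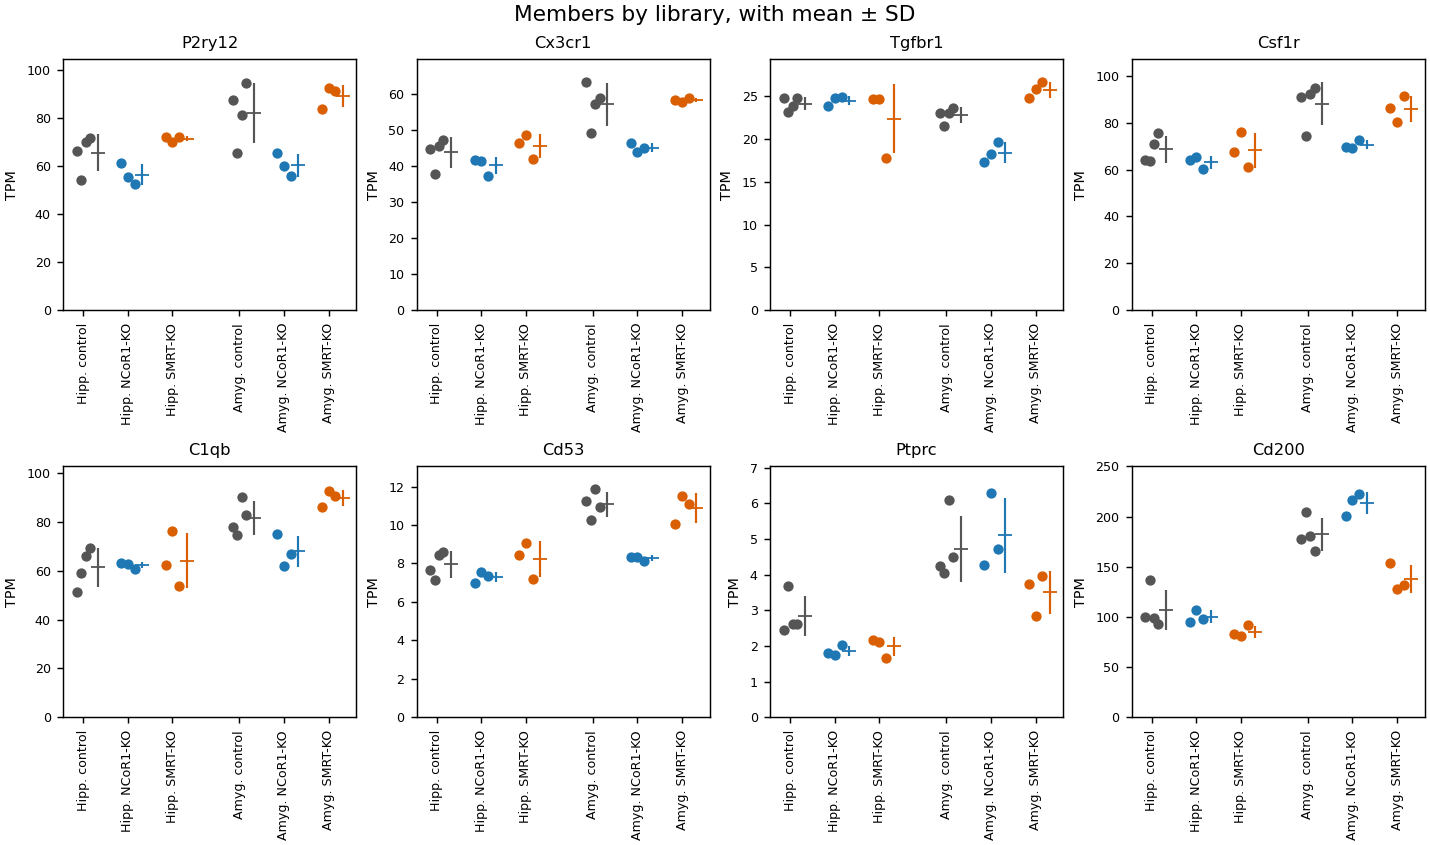
TPM of 8 members in each library (points), with the group mean and SD (bars) beside them, for control, NCoR1-KO and SMRT-KO in hippocampus and amygdala. In the amygdala, NCoR1-KO lies below SMRT-KO for P2ry12, Cx3cr1, Tgfbr1, Csf1r, C1qb and Cd53, and above it for Ptprc and Cd200.

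Which libraries were included had a strong bearing on these calls. Leaving out NCoR1-KO 2, SMRT-KO 2 or SMRT-KO 3 left 2 of the 15 calls, Tgfbr1 and Cd200. Both are outside the list of microglia markers summed below. With any 1 of those libraries left out no gene of that list was called, where 13 were called with all libraries. Leaving out NCoR1-KO 1 or NCoR1-KO 3 left 7 calls. Without control 2, 21 members were called. Every one of the 15 called members kept its sign in all of these fits.

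Markers of other cell types and regions differed between the same libraries. The summed TPM of 10 oligodendrocyte markers was 3952 to 5419 in amygdala NCoR1-KO, 8066 to 12172 in SMRT-KO and 2693 to 9556 in controls, and all 10 markers had NCoR1-KO libraries below all SMRT-KO libraries. The summed TPM of 8 striatum markers was 328 to 641 in NCoR1-KO, 748 to 1268 in SMRT-KO and 252 to 825 in controls, again with all 8 lower without overlap. Astrocyte markers summed to 3247 to 3350 TPM in NCoR1-KO, below both SMRT-KO (3682 to 4238 TPM) and control (3721 to 4280 TPM). This held for the sum: of the 10 astrocyte markers, 2 were lower than SMRT-KO without overlap and 1 was higher. Neuron markers had a median log2 difference of 0.005 between the knockouts. The summed TPM of 30 microglia markers, the members without Cd200, Tgfbr1 and Itgb5, was 864 to 945 in NCoR1-KO, 1127 to 1211 in SMRT-KO and 949 to 1207 in controls. Of 24 genes of border macrophages and leukocytes, 14 were tested, and none had NCoR1-KO and SMRT-KO libraries without overlap. Against control, 1 of the 14 had all NCoR1-KO libraries lower. Their sums were 39.7 to 44.2 TPM in NCoR1-KO, against 43.4 to 48.1 TPM in SMRT-KO and 42.4 to 89.7 TPM in controls, and Ly6c2 was at 0 in all SMRT-KO libraries. Rn45s ranged from 12283 to 14920 TPM in NCoR1-KO, against 17715 to 32646 TPM in SMRT-KO and 12461 to 21509 TPM in controls.

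With the median log2 deviation of the oligodendrocyte markers as a covariate, a fit chosen after seeing the data, no member was called between the knockouts and the members' median was -0.17. With the striatum markers as the covariate the count was again 0 and the median was -0.21. The smallest limma adjusted p of a member was 0.0861 and 0.107 in these fits, and Tgfbr1 kept a log2 difference of -0.43 in both. Because the marker sums of the knockouts did not overlap, their part in the difference and that of the genotype cannot be told apart here.

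**Figure D2:**
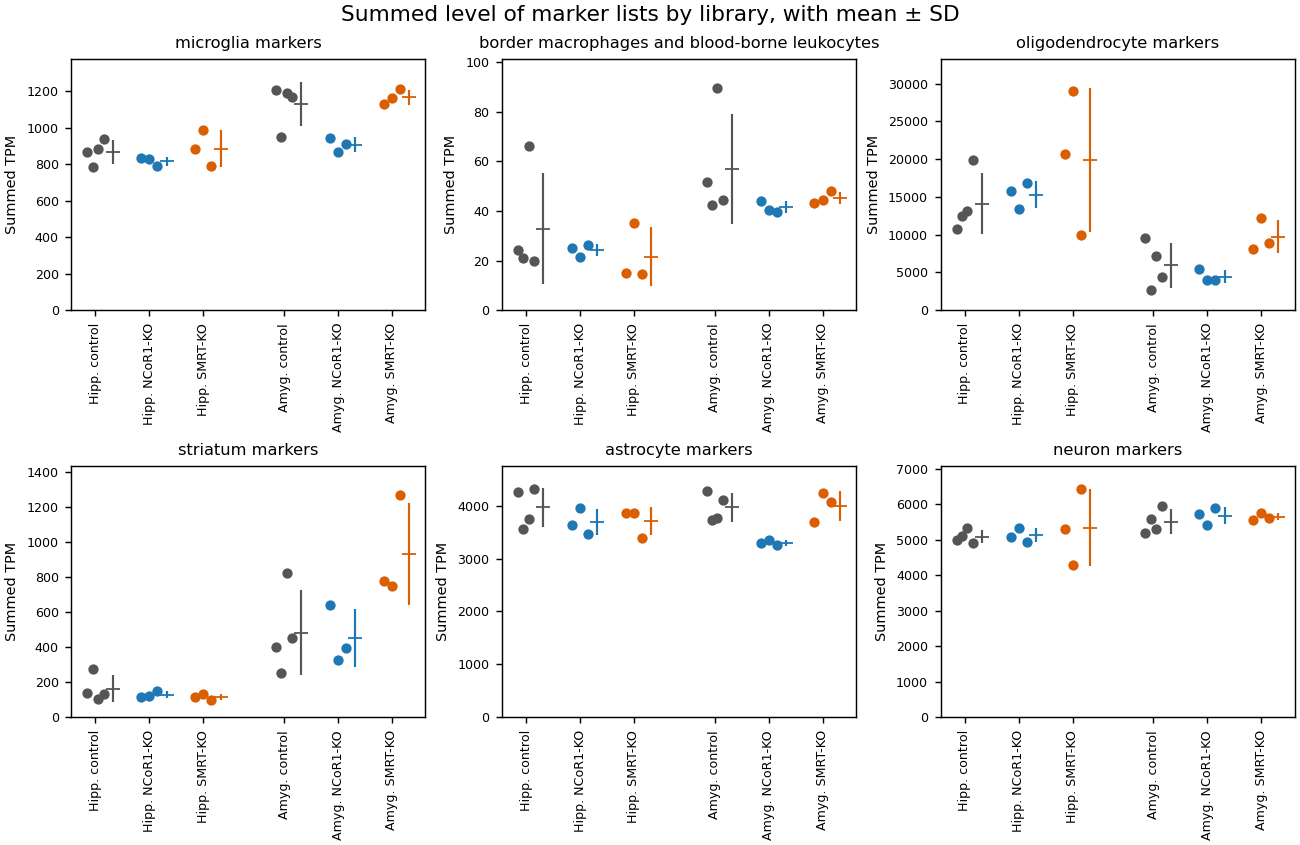
Summed TPM of marker lists in each library (points) by tissue and genotype, one panel per list. Amygdala NCoR1-KO libraries lie below SMRT-KO libraries in the sums of microglia, oligodendrocyte, striatum and astrocyte markers. Most single astrocyte markers overlapped between the knockouts.

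Against controls, no member passed the threshold in amygdala NCoR1-KO. The direction was nevertheless shared: 30 of 32 members had a difference below 0, against 58.3% of all genes, and the members' median was -0.27 beside -0.03 over all genes. Lists of other cell types lay below 0 in the same comparison: all 10 oligodendrocyte markers (median -0.23), all 10 endothelial markers (-0.20), all 10 mural cell and fibroblast markers (-0.19), 9 of 10 astrocyte markers (-0.20) and 12 of 14 border macrophage and leukocyte genes (-0.13), while 9 of 10 neuron markers were above 0 (0.08). Their part in the members' difference was not tested beyond the oligodendrocyte and striatum covariates. At an unadjusted p under 0.05 in limma, 23 members were lower and 1 was higher, where 9.81% and 3.3% of all genes were. At the adjusted threshold 60 genes were called in this comparison, 0.411% of those tested. Cd53 came closest, at 74.7% of the control mean (log2 difference -0.38 ± 0.07 SE, limma adjusted p = 0.0625), followed by Tgfbr1 (-0.30 ± 0.06, adjusted p = 0.0735) and Cx3cr1 (-0.33 ± 0.07, adjusted p = 0.0979). For 10 members the NCoR1-KO and control libraries did not overlap, all of them lower: P2ry12, P2ry13, Cx3cr1, Tmem119, Csf1r, Tgfbr1, Laptm5, Inpp5d, Cd53 and Aif1. This held for 8.43% of all genes. For P2ry12, P2ry13, Tmem119, Laptm5, Inpp5d and Aif1 the lowest control was control 2, just above the highest NCoR1-KO library. The highest NCoR1-KO library and control 2 stood at 24.19 and 24.22 TPM for Tmem119, and at 36.43 and 36.71 TPM for Laptm5.

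The count against control depended on 1 library. Amygdala control 2 was the lowest control for 28 members, with a microglia marker sum of 949 TPM against 1168 to 1207 TPM in the other controls, and it had the lowest oligodendrocyte sum, 2693 TPM. Without it, 10 members were called, all lower: P2ry12, P2ry13, Cx3cr1, Csf1r, Itgam, Ctss, Laptm5, Fcer1g, Cd53 and Mpeg1. Their log2 differences then ran from -0.61 to -0.36, the smallest limma adjusted p was 0.0268, the members' median was -0.34 and 126 genes were called over all. With the oligodendrocyte or striatum covariate, the median against control was -0.23 or -0.27, and no member was called.

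Amygdala SMRT-KO libraries were close to controls for most members. None was called, where 0.11% of all genes were. The difference was above 0 for 22 of 32 members with a median of 0.06, beside -0.03 over all genes, and the median took the opposite sign, -0.076 and -0.073, with the oligodendrocyte and striatum covariates. With 1 library left out it ran from -0.014 without control 2 to 0.097 without control 1. Members at an unadjusted p under 0.05 were 3 higher and 2 lower, where 8.42% and 13.5% of all genes were. The higher ones were Selplg, a mucin-like ligand of selectins, at 120% of control (log2 difference 0.26, limma adjusted p = 0.13), Tgfbr1 at 113% (0.17, adjusted p = 0.155) and Olfml3 at 123% (0.29, adjusted p = 0.175). Selplg measured 24.0, 26.3 and 26.2 TPM in SMRT-KO, 21.1, 19.9, 19.6 and 24.4 TPM in controls and 22.6, 19.2 and 19.2 TPM in NCoR1-KO. Its highest control lay within the SMRT-KO range. Cd68 was at 19.5, 17.4 and 16.5 TPM in SMRT-KO, 15.9, 16.3 and 20.3 TPM in NCoR1-KO, and 23.8, 23.9, 19.3 and 20.1 TPM in controls, with both knockouts overlapping control (SMRT-KO against control limma adjusted p = 0.175). Tgfbr1 was the only member with all SMRT-KO libraries above all controls, where 5.85% of all genes were, and Ptprc and Cd200 had all of them below, where 12.2% of all genes were. The comparisons of NCoR1-KO and SMRT-KO with control share the 4 control libraries.

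**Figure D3:**
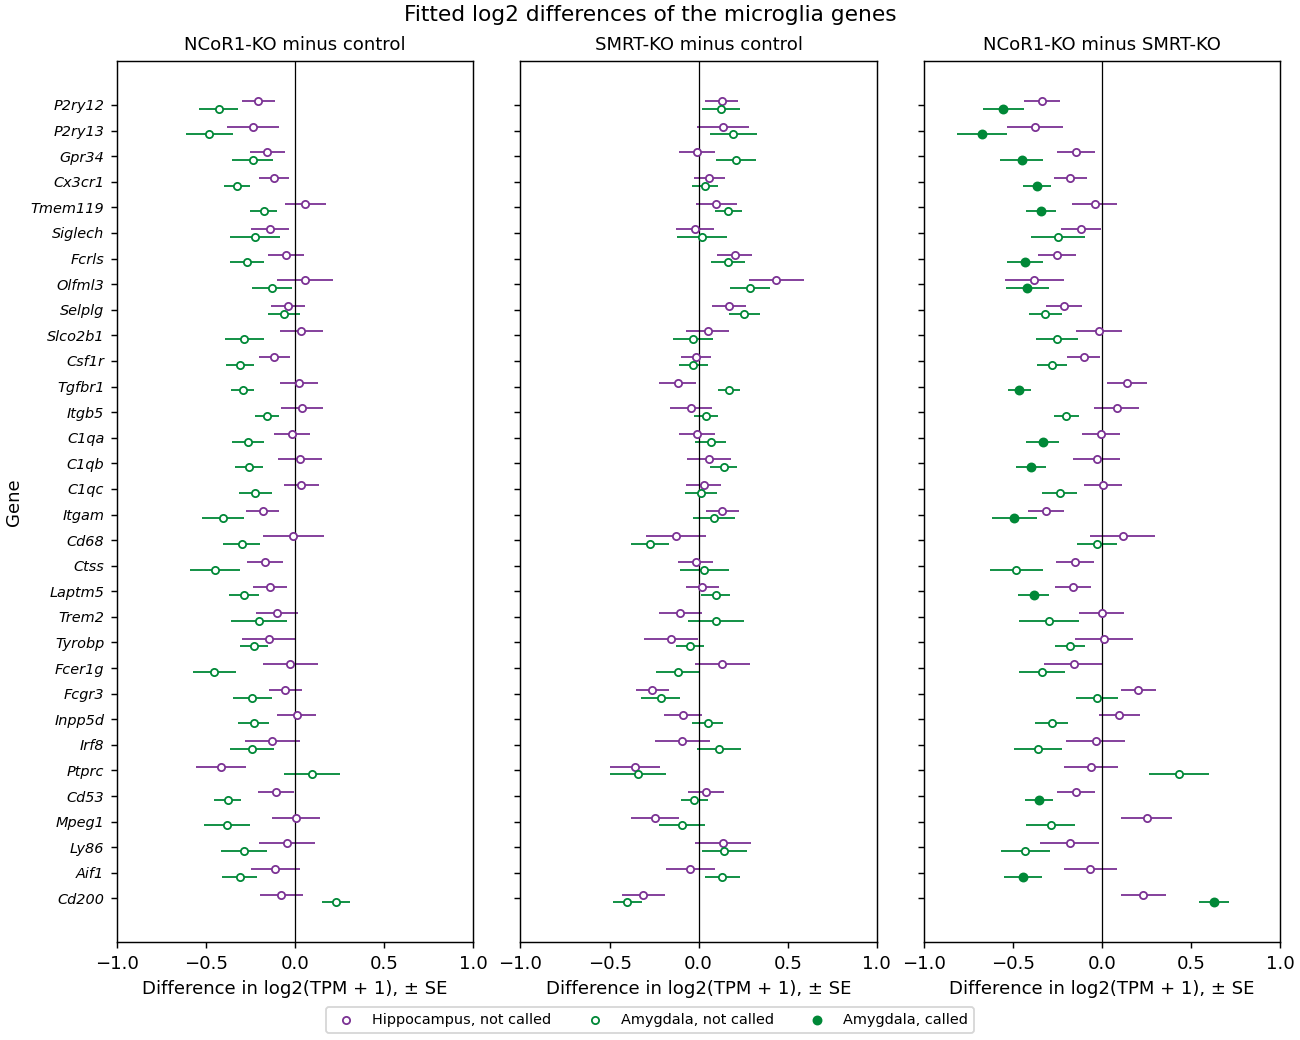
Fitted log2(TPM + 1) differences with SE for the 32 tested members (rows) in 3 comparisons (panels), with hippocampus in purple and amygdala in green and filled points for an adjusted p under 0.05. Filled points occur only in the amygdala comparison of NCoR1-KO with SMRT-KO, 14 to the left of 0 and Cd200 to the right.

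Cd200 encodes a membrane glycoprotein of neurons and other cells that restrains myeloid cells through Cd200r1, and it was the only called member with higher levels in NCoR1-KO. In the amygdala it measured 201, 217 and 222 TPM in NCoR1-KO, 154, 128 and 132 in SMRT-KO, and 178, 205, 181 and 166 TPM in controls. Every SMRT-KO library was below every other library, and NCoR1-KO overlapped control through control 2. Cd200 rose to 155% of SMRT-KO (log2 difference 0.63 ± 0.09 SE, limma adjusted p = 0.00419). Against control the differences were 0.23 ± 0.08 in NCoR1-KO (limma adjusted p = 0.253) and -0.40 ± 0.08 in SMRT-KO (limma adjusted p = 0.0572). The SMRT-KO difference passed the threshold when genes were kept at a mean of at least 5 TPM (adjusted p = 0.0489) or when SMRT-KO 1 was left out (-0.48, adjusted p = 0.0195).

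In the hippocampus Cd200 was at 83.4, 80.5 and 91.9 TPM in SMRT-KO, 95.2, 107 and 98.4 TPM in NCoR1-KO, and 99.5, 137, 98.9 and 92.9 TPM in controls. SMRT-KO was again below every control, though not past the threshold (log2 difference -0.31 ± 0.12 SE, limma adjusted p = 0.779). Its receptor gene Cd200r1 was near the floor, at 0.24, 0.38 and 0.52 TPM in amygdala NCoR1-KO, 0.72, 0.99 and 0.56 in SMRT-KO and 0.62, 0.16, 0.54 and 0.38 TPM in controls. In the hippocampus it was at 0.23, 0.24 and 0.29 TPM in NCoR1-KO, 0.36, 0.71 and 0.55 in SMRT-KO and 0.21, 0.55, 0.24 and 0 TPM in controls. It was not tested.

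In the hippocampus no gene passed the adjusted threshold in any of the 3 comparisons, so 0 of 32 members and 0% of 14501 genes were called. At an unadjusted p under 0.05 in limma, 2 members were lower in NCoR1-KO than in control, where 4.54% of all genes passed (658 genes). In SMRT-KO against control 3 members were lower and 1 was higher, where 5.61% of all genes passed (813), and 5 members were lower in NCoR1-KO than in SMRT-KO, where 6.59% did (956). The members' median difference was -0.07 for NCoR1-KO against control with 23 of 32 below 0, where 50% of all genes were. It was -0.01 for SMRT-KO against control with 17 below 0, where 56% of all genes were, and its sign was not stable. It was 0.02 after quantile normalization, 0.043 with the replicate block and 0.0066 at a mean of at least 5 TPM, and it ran from -0.069 without SMRT-KO 2 to 0.094 without SMRT-KO 3. Between the knockouts the median was -0.06, with 23 below 0 where 44.3% of all genes were, and it ran from -0.027 without SMRT-KO 2 to -0.14 without SMRT-KO 3. The NCoR1-KO median against control was -0.11 without control 2.

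P2ry12 in the hippocampus measured 61.3, 55.4 and 52.7 TPM in NCoR1-KO, 72.2, 70.1 and 72.0 in SMRT-KO and 66.2, 54.4, 70.0 and 71.8 TPM in controls. As in the amygdala, its NCoR1-KO libraries were all below the SMRT-KO libraries. Control 2 lay among the hippocampal NCoR1-KO values. The difference from control was -0.21 ± 0.09 (unadjusted p = 0.0489, limma adjusted p = 0.998) and that from SMRT-KO was -0.34 ± 0.10 (unadjusted p = 0.00688, limma adjusted p = 0.704). Itgam measured 12.97, 12.8 and 11.3 TPM in NCoR1-KO, 16.1, 16.4 and 14.2 in SMRT-KO and 13.1, 13.1, 15.2 and 15.3 TPM in controls, so that NCoR1-KO was lowest without overlap. All 10 surface receptor and signature genes had a difference below 0 between the hippocampal knockouts, with a median of -0.20. All 10 oligodendrocyte markers and all 7 thalamus markers were also below 0 there, with medians of -0.24 and -0.94. Hippocampal SMRT-KO 2 stood apart, with a thalamus marker sum of 639 TPM against 69.3 to 173 TPM in the other libraries, the highest oligodendrocyte sum at 29014 TPM against 10012 to 20739 TPM, and the highest microglia marker sum at 986 TPM against 783 to 940 TPM. The part of these markers in the members' differences was not tested beyond leaving out libraries and the covariate fits. NCoR1-KO lay below SMRT-KO without overlap for 6 members, P2ry12, P2ry13, Gpr34, Cx3cr1, Olfml3 and Itgam, where 5.01% of all genes did, and above it for Fcgr3 and Cd200, where 6.44% of all genes did.

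Ptprc was the member with the largest hippocampal difference from control in NCoR1-KO. It measured 1.79, 1.76 and 2.02 TPM in NCoR1-KO, 2.18, 2.11 and 1.67 in SMRT-KO and 2.44, 3.69, 2.61 and 2.62 TPM in controls. Both knockouts were below all controls, with differences of -0.42 ± 0.14 (limma adjusted p = 0.998) and -0.36 ± 0.14 (limma adjusted p = 0.779), at a level of a few TPM. Itgam and Ptprc were the members with NCoR1-KO below control without overlap, where 3.91% of all genes were. Fcgr3, Ptprc and Cd200 were those with SMRT-KO below control, where 2.71% of all genes were. Fcgr3, a low-affinity receptor for IgG, measured 18.0, 21.3 and 21.1 TPM in SMRT-KO, 22.8, 24.6 and 22.6 TPM in NCoR1-KO, and 27.0, 25.8, 22.9 and 21.7 TPM in controls (SMRT-KO against control -0.26 ± 0.09, limma adjusted p = 0.779).

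Olfml3 showed the largest positive difference in hippocampal SMRT-KO, with 22.8, 29.3 and 22.1 TPM against 17.5, 15.6, 16.2 and 23.1 TPM in controls and 18.9, 15.8 and 21.5 TPM in NCoR1-KO. The highest control reached the lower SMRT-KO libraries (log2 difference 0.44 ± 0.16 SE, limma adjusted p = 0.779). Fcrls at 35.0, 36.6 and 29.2 TPM and Selplg at 21.4, 22.9 and 19.3 TPM in hippocampal SMRT-KO overlapped their controls, which were 29.4, 25.9, 27.8 and 33.2 TPM for Fcrls and 16.6, 18.5, 18.9 and 20.9 TPM for Selplg. In NCoR1-KO those genes were at 29.3, 27.8 and 26.6 TPM for Fcrls and at 18.3, 19.6 and 16.4 TPM for Selplg. The most positive members of hippocampal NCoR1-KO against control were Tmem119, Olfml3 and C1qc, whose differences of 0.06, 0.05 and 0.03 were smaller than their SE. Tmem119 measured 20.3, 22.2 and 20.2 TPM in NCoR1-KO, 21.6, 24.8 and 18.6 in SMRT-KO and 16.6, 20.3, 21.1 and 22.5 TPM in controls. C1qc measured 76.7, 77.3 and 65.8 TPM in NCoR1-KO, 71.2, 85.4 and 63.3 in SMRT-KO and 70.8, 70.0, 68.0 and 76.8 TPM in controls, with all 3 genotypes overlapping.

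Of the remaining members called in the amygdala, P2ry13, Gpr34 and Cx3cr1 had all NCoR1-KO libraries below all SMRT-KO libraries in the hippocampus too. For Tgfbr1, Laptm5, Cd53, Aif1, C1qa and C1qb the knockouts overlapped there. P2ry13 measured 14.5, 12.6 and 11.9 TPM in NCoR1-KO, 17.6, 17.8 and 16.1 in SMRT-KO and 16.9, 11.6, 15.2 and 19.2 in controls. Gpr34 measured 21.85, 22.20 and 18.54 TPM in NCoR1-KO, 24.41, 22.76 and 22.24 in SMRT-KO and 24.5, 20.3, 22.2 and 26.6 in controls. Cx3cr1 measured 41.9, 41.4 and 37.4 TPM in NCoR1-KO, 46.4, 48.6 and 42.0 in SMRT-KO and 44.7, 37.7, 45.7 and 47.3 in controls. The margins were narrow for Gpr34 and Cx3cr1, and control 2 lay among the NCoR1-KO values for Gpr34 and Cx3cr1 and below them for P2ry13. Tgfbr1 was nearly level, at 23.9, 24.8 and 24.9 TPM in NCoR1-KO, 24.8, 24.7 and 17.7 in SMRT-KO and 24.8, 23.2, 23.8 and 24.8 in controls, apart from SMRT-KO 3. Laptm5 measured 31.9, 31.8 and 28.9 TPM in NCoR1-KO, 33.8, 39.1 and 31.3 in SMRT-KO and 32.1, 31.3, 34.7 and 38.6 in controls. Cd53 measured 7.01, 7.54 and 7.37 TPM in NCoR1-KO, 8.44, 9.04 and 7.18 in SMRT-KO and 7.67, 7.12, 8.43 and 8.62 in controls. The genotypes overlapped for both genes. Aif1 was also without order, at 11.5, 8.72 and 10.02 TPM in NCoR1-KO, 12.7, 9.51 and 9.65 in SMRT-KO and 12.5, 9.17, 11.6 and 10.7 in controls.

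The complement genes in the hippocampus had no order by genotype. C1qa measured 62.7, 63.1 and 58.9 TPM in NCoR1-KO, 63.0, 72.1 and 52.0 in SMRT-KO and 58.5, 58.0, 66.8 and 65.9 TPM in controls. C1qb measured 63.2, 62.6 and 60.8 TPM in NCoR1-KO, 62.4, 76.2 and 53.9 in SMRT-KO and 51.3, 58.9, 66.2 and 69.4 TPM in controls. For both genes the SMRT-KO libraries spread wider than the NCoR1-KO libraries.

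The difference between tissues was tested as an interaction in a fit of all 20 libraries over 14210 genes. No member and no gene was called for the NCoR1-KO effect (0% of genes) or for the SMRT-KO effect (0%), and 522 genes (3.67%) and 1257 genes (8.85%) had an unadjusted p under 0.05 in limma. For NCoR1-KO the hippocampal effect was above that in the amygdala for 30 of 32 members, with a median of 0.22, where 59.1% of all genes were above with a median of 0.03. At an unadjusted p under 0.05 there were 3 members: Tgfbr1 (0.32 ± 0.12), Cd53 (0.27 ± 0.12) and Ptprc (-0.51 ± 0.21), each with an adjusted p of 0.998. For SMRT-KO 12 of 32 members were above, with a median of -0.05, where 54.1% of all genes were, and the member at an unadjusted p under 0.05 was Tgfbr1 (-0.29 ± 0.12, limma adjusted p = 0.514). These data therefore do not show that a member responded differently in the tissues.

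Genes of microglia outside the set were described with a further list of 40. Between the amygdala knockouts 34 of 40 were lower in NCoR1-KO with a median of -0.22, and 4 fell, where 6.46% of all genes did. Among these were Itgb2, the partner of Itgam in complement receptor 3, at -0.51 (limma adjusted p = 0.0354) and Lpcat2, an enzyme of platelet-activating factor synthesis, at -0.47 (adjusted p = 0.0404). Against control, 35 of 40 were lower in amygdala NCoR1-KO with a median of -0.24 and none was called. Spi1 differed by -0.39 between the knockouts (limma adjusted p = 0.107). Of 29 genes that reactive microglia raise or that serve their lysosomes, 21 were tested in the amygdala. Of these, 19 were lower in NCoR1-KO than in SMRT-KO with a median of -0.14. The lipopolysaccharide co-receptor gene Cd14 fell by 0.61 on the log2 scale (limma adjusted p = 0.0365), and 1 called gene of 21 is below the share over all genes.

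Ligands and partners of the members were more mixed. Of 24 tested in the amygdala, 17 were lower in NCoR1-KO than in SMRT-KO, where 50.1% of all genes were, and 3 fell, where 6.46% of all genes did: Itgb8 by 0.97 (limma adjusted p = 0.00707), Itgav by 0.56 (adjusted p = 0.00608) and Cd47 by 0.76 on the log2 scale (adjusted p = 0.0239). Itgav and Itgb8 encode the integrin that releases active TGF-beta, and Cd47 encodes a surface protein that restrains phagocytosis. Itgb8 measured 15.04, 22.2 and 21.3 TPM in NCoR1-KO, 34.0, 41.4 and 41.1 in SMRT-KO and 34.0, 28.0, 39.5 and 32.2 TPM in controls, so that NCoR1-KO lay below all other libraries. Its difference from control was -0.76 (limma adjusted p = 0.0585). The fractalkine gene Cx3cl1 differed by -0.08, Il34 by -0.02, Csf1 by -0.17, Tgfb1 by -0.21, Tgfb2 by 0.41 and Apoe by -0.05 between the knockouts, none past the threshold. The complement gene C3 differed by 1.72 with an SE of 0.71 (limma adjusted p = 0.13).

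Promoter sequences are shown for the called members whose 250 bases upstream of the start site held AGGAAGT or its reverse complement ACTTCCT, letters found in sites of ETS-family factors such as PU.1. They are from RefSeq on GRCm38.p6, are printed 5′ to 3′ on the gene's strand, and carry the motif in capitals. The P2ry12 window is at chr3:59262986-59263235, Fcrls at chr3:87263525-87263774 and C1qb at chr4:136886201-136886450, all on the minus strand.
P2ry12: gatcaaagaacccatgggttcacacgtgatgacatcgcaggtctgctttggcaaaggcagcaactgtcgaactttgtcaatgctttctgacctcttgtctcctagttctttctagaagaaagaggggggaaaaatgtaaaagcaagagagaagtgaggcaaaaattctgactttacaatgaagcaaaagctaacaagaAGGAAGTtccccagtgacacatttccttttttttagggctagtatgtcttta
Fcrls: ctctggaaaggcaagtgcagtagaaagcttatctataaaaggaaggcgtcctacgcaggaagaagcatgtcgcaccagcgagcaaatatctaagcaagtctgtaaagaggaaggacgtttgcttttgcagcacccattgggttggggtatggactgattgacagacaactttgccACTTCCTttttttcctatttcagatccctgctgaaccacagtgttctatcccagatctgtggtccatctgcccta
C1qb: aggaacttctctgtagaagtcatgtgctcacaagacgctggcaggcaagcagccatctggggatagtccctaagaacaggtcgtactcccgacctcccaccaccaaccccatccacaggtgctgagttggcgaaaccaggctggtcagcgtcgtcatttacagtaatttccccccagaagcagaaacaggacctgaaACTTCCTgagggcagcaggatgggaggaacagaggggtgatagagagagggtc
The motif begins 52, 75 and 53 bases before the RefSeq start site. GENCODE M21 starts Fcrls at 87263738, inside the Fcrls window, so in that annotation the Fcrls motif lies within the gene. Of the 33 members, 26 matched the promoter table with 32 start sites, and 7 of these sites, in 6 members, held the motif, beside 7.69% of all 32851 start sites. The other members with it were C1qc, Inpp5d and Ptprc, which were not called. The longer letters GAGGAAGT were in 2 member sites beside 2.44% of all, and the shorter GGAAGT, contained in the motif, in 10 beside 19.7%. GAGGAA, also searched, was in 17 of the 32 member sites beside 23.3% of all. The motif shown was thus among several strings searched, and these shares were not tested. A match describes the letters of this window only.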

How the data were processed

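The authors deposited 1 table of TPM per tissue, with values to 2 decimals and library totals of 1000000. RSEM 1.3.3, STAR 2.5.3a, fastp 0.21.0 and bcl2fastq are named in the submitters' processing notes, with the genome build mm10 and without roles or order. The annotation used and the strand setting in counting are not given in the sources used here. TPM keep no depth, so no counting interval was computed. Libraries were grouped by the labels' tissue and genotype.

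TPM were taken as log2(TPM + 1), so that differences of low genes are understated. Genes with at least 1 TPM in at least 3 libraries of a tissue were fitted with limma 3.58.1 (trend, R 4.3.3) over its 10 libraries, with Benjamini-Hochberg adjustment over all genes tested. Tests of the tissue difference used 1 fit of 20 libraries. The script was tested on simulated data. Alternatives were another pseudocount, other filters, quantile normalization, a replicate block, the compared groups alone, each library left out, and fits added after seeing the data. The members and gene lists were chosen with earlier results of these data known. Members were named and given per library when called, when among the 3 smallest p per direction against control, or when separated in both tissues, with the C1q genes, Cd200 and Cd200r1. Of the other lists, the genes called and set ligands were named. All 197 listed genes matched, 7 through older symbols. Gene positions came from GENCODE M21. The targeted SMRT gene and some called genes of the wider lists, which entered the counts, are not reported here.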

Additional observations from a re-analysis of the deposited data

Results flagged for a closer look

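The 4 control libraries of a tissue were checked for a library far from the rest, for each tested member and for the members' median score, in 66 checks. In 5 of them the gap was larger than Dixon's 95% critical value for 4 samples, and chance alone gives about 1 in 20. Amygdala control 2 stood low for C1qa at 72.7 TPM, with 88.1 to 90.6 TPM in the others, and for Laptm5 at 36.7 TPM, with 44.2 to 45.4 TPM in the others. Hippocampus control 2 stood high for Ptprc at 3.69 TPM, with 2.44 to 2.62 TPM in the others, and for Cd200 at 137 TPM, with 92.9 to 99.5 TPM in the others. Hippocampus control 3 stood low for Cd68 at 9.89 TPM, with 15.2 to 15.7 TPM in the others.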

How the results depend on the processing

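Over all results and alternatives, 968 of 1160 values were labelled unchanged. A single member had to keep its direction and its side of the threshold. A median had to stay within the replicate spread, and a count within a factor of 1.5. Counts that were 0 in the main fit and stayed 0 are among the 968. For single members 597 of 718 were unchanged, with 108 losing the call, 4 gaining it and 9 changing sign. All 108 losses fell on the 15 members called between the amygdala knockouts, each with 19 alternatives. C1qa and Olfml3 lost the call in 13 of 19, and Tgfbr1 and Cd200 in 2 of 19. All other single-member results were not called in the main fit, so they could not lose a call. TPM keep no depth, so what depth limits could not be measured.

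Between the amygdala knockouts, 15 members and 1679 genes were called. Leaving out 1 library gave 2 to 21 members and 246 to 2218 genes. The oligodendrocyte score gave 0 members, 38 genes and a members' median of -0.17, and the striatum score 0 members, 21 genes and -0.21. Without control 2 and SMRT-KO 3 together, 8 members and 472 genes were called. For NCoR1-KO against control in the amygdala the 60 genes became 16 with no filter, 4 in a fit of the compared groups alone, 29 with the oligodendrocyte score, 13 without control 2 and SMRT-KO 3 together (2 members called) and 0 to 126 with 1 library left out (0 to 10 members). For SMRT-KO against control in the amygdala the 16 genes became 143 at a mean of at least 5 TPM (1 member called), 2 with no filter, 2 in the compared groups alone, 0 with either score, 0 without control 2 and SMRT-KO 3 together and 0 to 697 with 1 library left out (0 to 1 member). Its median of 0.06 became -0.076 and -0.073 with the scores and -0.036 without control 2 and SMRT-KO 3, and ran from -0.014 to 0.097 with 1 library left out. The cause of these shifts was not tested.

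In the hippocampus, where no gene was called, NCoR1-KO against control gave 1 gene in the compared groups alone, after quantile normalization and with the oligodendrocyte score, and 0 to 1 with 1 library left out. SMRT-KO against control gave 1 after quantile normalization and 0 to 1 with 1 library left out. The knockouts against each other gave 5 in the compared groups alone, 1 with the striatum score, 1 without control 2 and SMRT-KO 2 together and 0 to 1 with 1 library left out. The SMRT-KO interaction gave 1 gene with no filter and 0 to 17 with 1 library left out. Signs changed for amygdala NCoR1-KO Ptprc, to -0.043 without NCoR1-KO 2 (0.20 at most with another library left out), and for hippocampal NCoR1-KO C1qc, to -0.000337 with the oligodendrocyte score and to -6.07e-05 and -0.0062 without NCoR1-KO 1 and 2 (0.11 at most). They also changed for hippocampal Olfml3, to -0.0012 with that score, -0.0087 without control 2 (with or without SMRT-KO 2) and -0.047 without NCoR1-KO 3 (0.17 at most), and Tmem119, to -0.028 without control 1 (0.11 at most). The scores and the joint omissions were chosen after seeing the data.

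Replicate numbers were shared between groups, but the labels give no pairing. Same-numbered libraries of the tissues correlated at 0.00081 to 0.48, with 8 of 10 over 0.1 and 8 of 10 best with their own number. That is a hint from the data and not from the design. The replicate block within a tissue uses the numbers across genotypes instead. Between the amygdala knockouts, same-numbered libraries correlated at -0.25 to -0.042, with 0 of 3 best with their own number. Against amygdala control, 2 of 3 were best for NCoR1-KO and 0 of 3 for SMRT-KO. With the replicate block, 12 members and 854 genes were called between the amygdala knockouts, and 41 and 4 genes for NCoR1-KO and SMRT-KO against control with no member.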

Other observations

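Genes of other cell types and regions were also called between the amygdala knockouts, all lower in NCoR1-KO than in SMRT-KO. Over all genes, 6.46% were called lower. Few were called per list: 1 of 10 oligodendrocyte, 1 of 10 endothelial and 1 of 10 neuron markers. The counts were 2 of 10 for astrocytes and 2 of 10 for mural cells and fibroblasts. They were 1 of 8 for choroid plexus, 1 of 8 for striatum and 2 of 7 for thalamus. The astrocyte genes Slc1a2, a glutamate transporter, and Aqp4, a water channel, differed by -0.58 and -0.48 (limma adjusted p = 0.00289 and 0.0306), and Slc1a2 was also lower than in controls, by 0.43 on the log2 scale (adjusted p = 0.0291). Of the vascular lists, Pecam1 differed by -0.37, Rgs5 by -0.45 and Lum by -0.65 (limma adjusted p = 0.0446, 0.0241 and 0.0483), and 9 of 10 endothelial and 9 of 10 mural cell and fibroblast markers were below 0. The oligodendrocyte gene Ermn differed by -1.11, the striatal phosphodiesterase gene Pde10a by -1.15, Enpp2 of the choroid plexus list by -1.17, and Ramp3 and Lef1 of the thalamus list by -1.41 and -0.47 (limma adjusted p = 0.0386, 0.0485, 0.0462, 0.0160 and 0.0263). The neurofilament gene Nefm differed by -0.69 (limma adjusted p = 0.0375), while 5 of the 10 neuron markers were above 0. The ribosomal RNA precursor gene Rn45s differed by -0.81 (limma adjusted p = 0.0476). The red blood cell genes had no called member.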
